A study of Mus musculus with 20 samples.

Results

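The comparison described here set 5 mouse tumours taken on day 1 after a plain antibody against rat HER2 (anti-rHER2) against 5 tumours taken on day 1 after an isotype control antibody. These 10 tumours were picked by their treatment label from 20 tumours in all, and every one of the 770 genes measured was kept. Each tumour grew from MMC cells, a mouse mammary carcinoma line, implanted under the skin of transgenic hosts, FVB/N-TgN(MMTV-Erbb2)NK1Mul/J, aged 6 to 8 weeks. These mice carry an Erbb2 transgene under the mammary MMTV promoter, so the isotype hosts carried it as well, and all tumours came from 1 implanted line. Mice were randomized by tumour size at 200 to 500 mm3, and each group received its agent intraperitoneally at 5 mg/kg. The other 10 tumours received the same kinds of antibody conjugated to T785, an agonist of the RNA sensors TLR7 and TLR8. These conjugates, the isotype ISAC and the anti-rHER2 ISAC (immune-stimulating antibody conjugates), are used below only where they bear on the plain antibody.

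An antibody that coats a tumour cell presents its Fc end to Fc-gamma receptors on macrophages, neutrophils, dendritic cells and NK cells. Activating receptors signal through the common gamma chain, encoded by Fcer1g, and the kinase Syk, and engage phagocytosis, oxidant release and the production of lipid and protein mediators, while Fcgr2b encodes the inhibitory receptor. Complement deposited on the same surface is read by receptors such as the integrin of Itgam and Itgb2, and its cleavage products attract myeloid cells. The comparison asks which transcripts of a whole tumour differ early after such coating, with no payload on the antibody.

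RNA was counted on an nCounter panel, in which coloured probes are counted without amplification. The deposited value is a normalized signal, equal to a probe count multiplied by a factor per tumour, with a floor of 1. Recovered totals were 271793 to 395944 probe counts in the isotype tumours and 297116 to 432499 in the anti-rHER2 tumours. The median signal of all genes was 48.9 to 62.6 in the isotype tumours and 62.1 to 75.5 in the anti-rHER2 tumours, a shift that touches every count below.

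Of the 770 genes, 68 were higher and 2 were lower after anti-rHER2 (limma on log2(signal + 1), adjusted p below 0.05), which is 8.83% and 0.26% of the panel. At an unadjusted p below 0.05 there were 175 higher and 11 lower genes. The median log2 fold change of all 770 genes was 0.20, and 579 genes had a positive value. The changes were mostly modest, since the median of the 68 higher genes was 0.64 and 13 of them passed a log2 fold change of 1. In 52 of the 68, all 5 anti-rHER2 tumours lay above all 5 isotype tumours, and such a separation was found for 71 genes upwards (9.22% of the panel) and 3 downwards (0.39%). The plot of fold change against p shows the asymmetry.

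**Figure D1:**
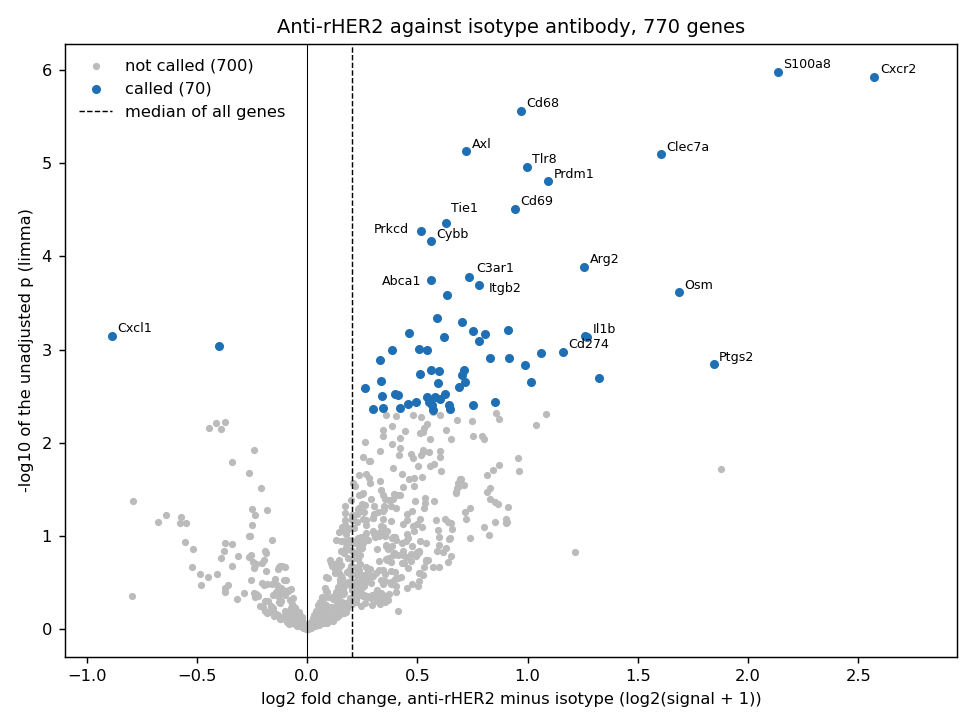
Each point is 1 of 770 genes. The x axis is the log2 fold change, anti-rHER2 minus isotype, on log2(signal + 1), the y axis is minus the log10 of the unadjusted p from limma, blue points were called (68 higher, 2 lower), and the dashed line marks the median of all genes at 0.20; S100a8 and Cxcr2 stand at the top right, and Cxcl1 stands to the left.

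The number of calls depended on how the tumours were scaled and on single tumours. With each tumour set to equal means of a list of reference genes, 86 genes were higher and 2 lower, and with median-ratio scaling, quantile normalization or equal medians of all genes, 22, 13 and 12 were higher and 12, 8 and 11 lower. Leaving out isotype tumour 1, 2 or 4 gave 41, 21 or 32 higher genes, and leaving out anti-rHER2 tumour 1, 4 or 5 gave 31, 21 or 26. Of the 70 calls, 53 ended when at least 1 tumour was left out. The 17 that did not were all higher: Cxcr2, S100a8, Clec7a, Arg2, Tlr8, Cd68, Cd69, C3ar1, Axl, Abca1, Csf1r, Cybb, Itgb2, Osm, Prdm1, Prkcd and Tie1. The first 9 of these were also called under each of the 4 other scalings. By contrast, 45 of the 68 higher calls were kept with equal means of the reference list but under none of the 3 scalings that remove the shift of the median, among them Ptgs2, Fos, Ifitm1, Mmp9, Emr1, Itgam, Itgax, Lyz2 and Fcer1g. The plot of called genes under different scalings shows each gene's values.

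**Figure D2:**
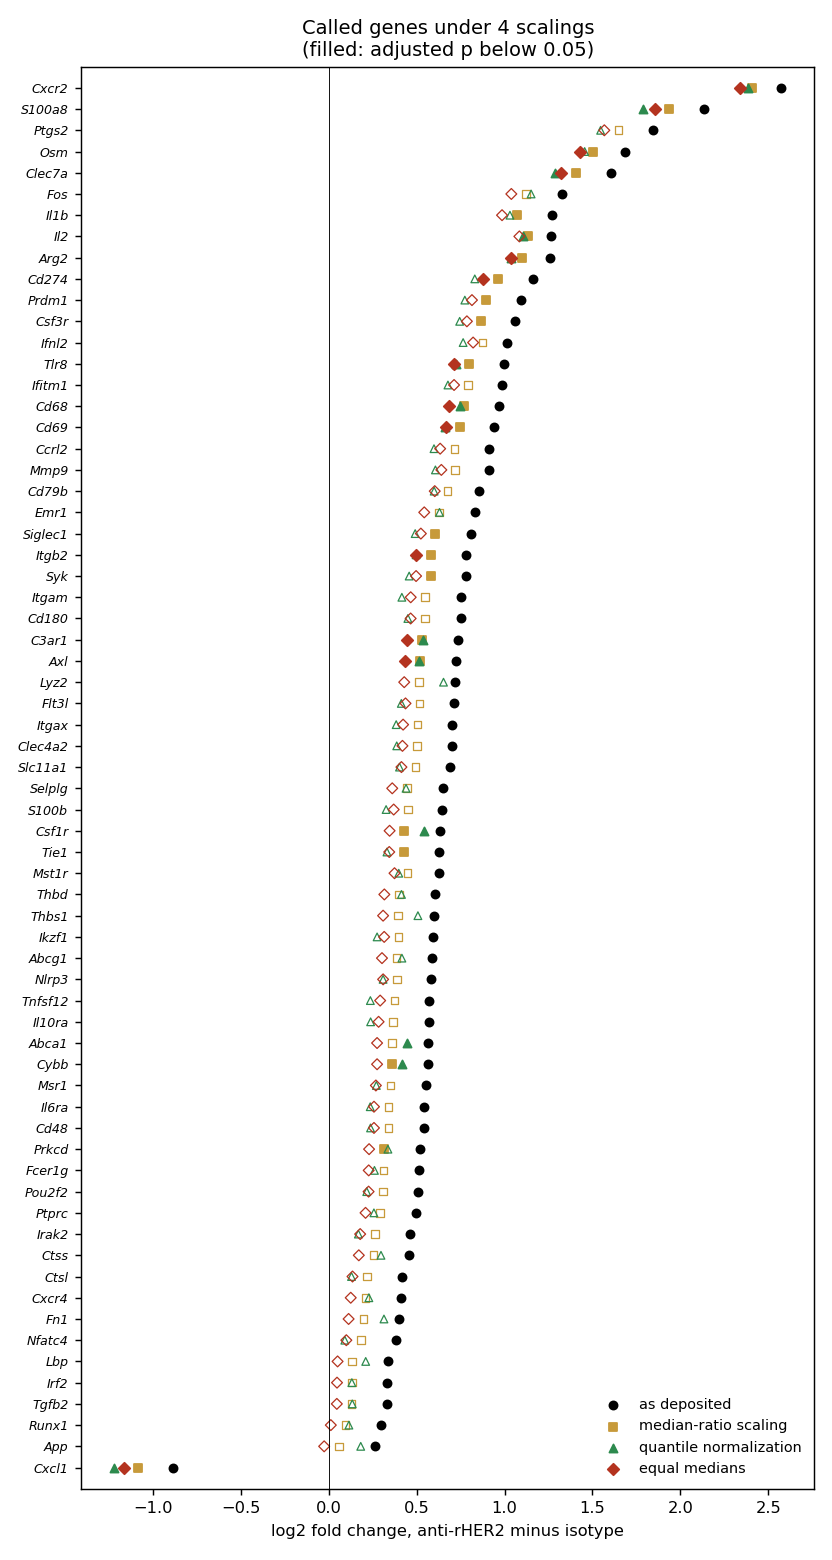
The x axis is the log2 fold change, anti-rHER2 minus isotype, of 66 of the 70 called genes, 1 per line. Black circles show the values as deposited and coloured symbols 3 scalings that remove the shift of the panel's median, filled where the adjusted p was below 0.05; the coloured symbols lie to the left of the black ones, App alone among the higher genes crosses 0, and Cxcl1 stays filled throughout.

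Of the genes that were called under every scaling and with every left-out tumour, 7 were matched to a promoter, and those of Cxcr2 and Clec7a held none of the motifs searched. Regulatory DNA is printed for 3 of the 5 with a match, 1 each for the granulocyte, macrophage and complement receptor groups. The sequences are RefSeq promoters of the GRCm38.p6 build, 250 bases before to 50 bases after the start of the gene, read 5′ to 3′ on the gene's strand. This reference is that of C57BL/6J mice, whereas the hosts were FVB/N mice. Capitals mark matches, on either strand, to GAGGAAG (an ETS-family core bound by PU.1, a regulator of myeloid genes), TGANTCA (AP-1) or TTGCNNAA (C/EBP), and no matches overlapped. S100a8 is at chr3:90668821-90669120 on the plus strand, Cd68 at chr11:69666121-69666420 on the minus strand and C3ar1 at chr6:122856108-122856407 on the minus strand.
S100a8: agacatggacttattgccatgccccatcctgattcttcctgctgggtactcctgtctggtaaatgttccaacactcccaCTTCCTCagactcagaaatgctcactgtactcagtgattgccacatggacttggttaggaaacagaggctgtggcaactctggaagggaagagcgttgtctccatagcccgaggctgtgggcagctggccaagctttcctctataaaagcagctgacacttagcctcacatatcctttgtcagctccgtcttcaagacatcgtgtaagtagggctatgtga
Cd68: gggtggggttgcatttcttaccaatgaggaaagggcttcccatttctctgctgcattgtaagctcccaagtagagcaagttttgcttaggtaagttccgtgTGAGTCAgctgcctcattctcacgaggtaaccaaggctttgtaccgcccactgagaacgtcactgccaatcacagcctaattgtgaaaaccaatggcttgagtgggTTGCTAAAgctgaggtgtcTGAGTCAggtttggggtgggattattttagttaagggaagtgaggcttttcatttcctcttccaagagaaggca
C3ar1: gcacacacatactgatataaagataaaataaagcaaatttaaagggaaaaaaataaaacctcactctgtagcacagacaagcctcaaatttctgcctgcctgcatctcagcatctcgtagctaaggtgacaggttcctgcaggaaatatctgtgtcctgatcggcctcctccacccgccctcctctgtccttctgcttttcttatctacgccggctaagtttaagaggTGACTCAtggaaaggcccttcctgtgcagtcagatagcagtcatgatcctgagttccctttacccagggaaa
Of all 27025 RefSeq promoters of this length, 13.5% held GAGGAAG, 7.93% TGANTCA and 10.8% TTGCNNAA, and an NF-kB motif, which 4.35% held, was not matched in these 3. Promoters were matched for 578 of the 770 panel genes, and of these 17.3% held GAGGAAG, 11.1% TGANTCA, 12.3% TTGCNNAA and 9.69% the NF-kB motif. Of the 47 higher genes with a promoter, out of 68, 19.1%, 12.8%, 10.6% and 6.38% held them in the same order, and with so many genes unmatched the comparison of these shares is void. The matches describe letters and show no binding.

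The 2 largest log2 fold changes of the panel, those of Cxcr2 and S100a8, belonged to neutrophil genes. The order depended on the pseudocount: with 10 in place of 1, Cxcr2 fell to 1.34, under S100a8 (1.85), Ptgs2 (1.47) and Clec7a (1.45), and it was still called. Of 19 measured neutrophil markers 6 were higher (Cxcr2, S100a8, Csf3r, Mmp9, Itgam and Cybb) and none lower. The share of higher genes was 31.6% beside 8.83% of the panel. The list's median log2 fold change was 0.60 beside 0.20 for the panel. In a whole tumour, more cells of a type and more RNA per cell cannot be told apart, here or in any group of genes below.

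Cxcr2 encodes the receptor through which neutrophils sense CXC chemokines. Its signal was 1.0, 2.87, 2.36, 6.65 and 5.82 in the isotype tumours and 29.8, 22.8, 14.9, 28.6 and 28.4 in the anti-rHER2 tumours. The groups were far apart, with the isotype tumours within a few counts of the floor. The difference was 2.57 ± 0.36 on the log2 scale (SE, n = 5 and 5, limma adjusted p = 0.000453).

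S100a8 encodes a subunit of calprotectin, a calcium- and metal-binding protein abundant in neutrophils and early monocytes. It stood at 41.4, 22.03, 25.9, 37.2 and 25.2 in the isotype tumours and at 162, 158, 71.0, 131 and 174 after anti-rHER2. Anti-rHER2 tumour 3 was the lowest of its group and was still well above every isotype tumour. The log2 fold change was 2.14 ± 0.30 (limma adjusted p = 0.000453), a 4.39-fold difference.

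The other members of the list moved less. Csf3r, the receptor of the granulocyte growth factor G-CSF, had 15.3 to 23.9 in the isotype and 24.8 to 63.3 in the anti-rHER2 tumours, without overlap (log2 1.06 ± 0.28, limma adjusted p = 0.0249), and Mmp9, a matrix-degrading protease stored in neutrophil granules, had 9.31 to 21.1 and 21.4 to 40.0 (0.91 ± 0.22, adjusted p = 0.021). The call of Csf3r ended without isotype tumour 2 or anti-rHER2 tumour 1, 4 or 5 (adjusted p up to 0.0738), and that of Mmp9 without isotype tumour 4 or anti-rHER2 tumour 4 or 5 (up to 0.0547). Elane and Lcn2 were not called. Elane, neutrophil elastase, was at 1.0 to 4.93 over the 10 tumours (log2 -0.17 ± 0.38, adjusted p = 0.832), and Lcn2, an iron-trapping protein that the tumours carried at very high signal, had a log2 fold change of -0.06 ± 0.10 (adjusted p = 0.79). The summed signal of S100a8, Cxcr2 and Csf3r, used here as neutrophil markers, was 41.2 to 67.8 in the isotype and 111 to 255 in the anti-rHER2 tumours.

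**Figure D3:**
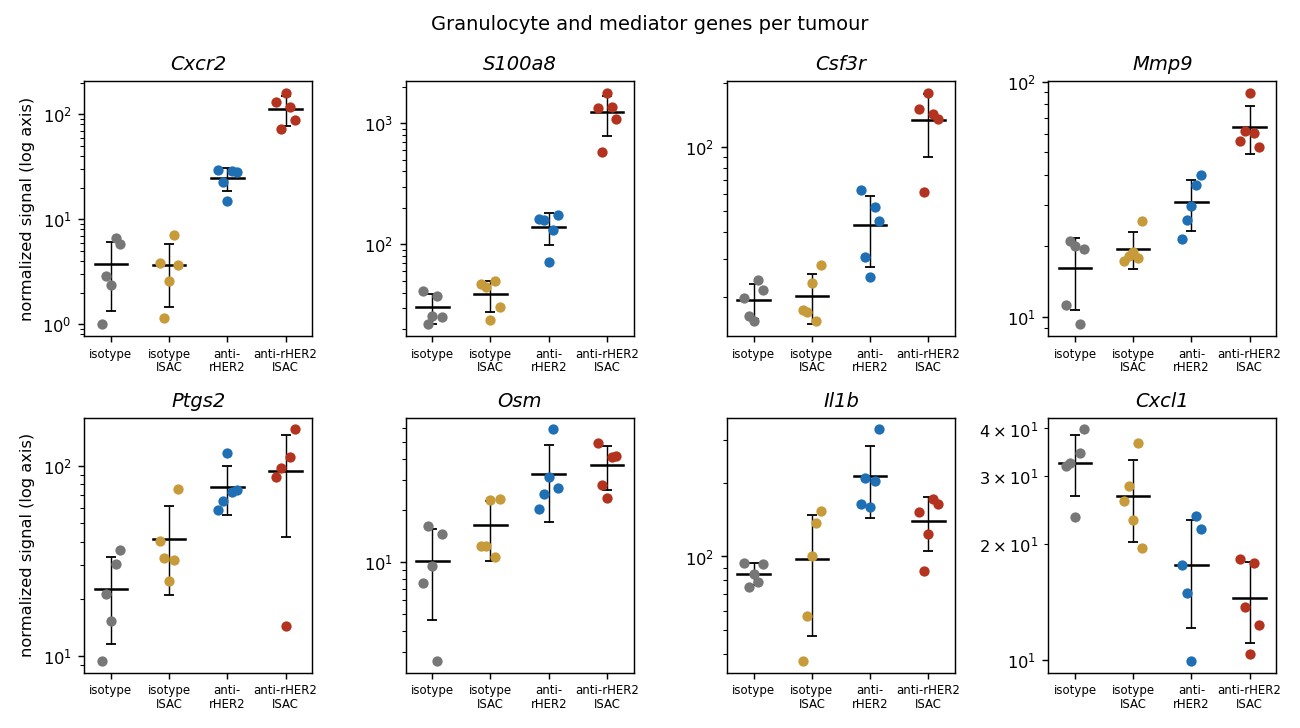
Normalized signal on a log axis for 8 genes in the 4 treatment groups, with 1 point per tumour, a bar at the mean and an error bar of 1 SD (n = 5 per group). Cxcr2 and S100a8 of the anti-rHER2 tumours lie above all isotype tumours and below all anti-rHER2 ISAC tumours, while Ptgs2, Osm and Il1b of the 2 anti-rHER2 groups overlap and Cxcl1 has a lower mean in both than in the isotype tumours.

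Among 23 inflammatory cytokines and mediators 3 were higher, Ptgs2, Osm and Il1b, with a list median of 0.23, close to that of the panel. Ptgs2 encodes cyclooxygenase-2, which makes prostaglandins. Its signal was 9.41, 21.1, 15.3, 30.6 and 35.9 in the isotype tumours and 58.6, 65.5, 116, 73.0 and 74.9 in the anti-rHER2 tumours. No anti-rHER2 tumour reached down to the isotype range, and the isotype values spread widely. Expressed as log2, the difference was 1.84 ± 0.49 (limma adjusted p = 0.0289), and the call ended without isotype tumour 1 or 2 or anti-rHER2 tumour 3, 4 or 5 (adjusted p up to 0.0675).

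Osm encodes oncostatin M, an IL-6 family cytokine released by neutrophils and macrophages. It was at 7.53, 16.3, 9.43, 2.66 and 14.6 in the isotype tumours and at 20.5, 24.8, 31.4, 59.2 and 27.1 after anti-rHER2. The groups did not overlap, and anti-rHER2 tumour 4 was the highest. The log2 fold change was 1.69 ± 0.37 (limma adjusted p = 0.0117).

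Il1b encodes the precursor of interleukin-1 beta, which caspase-1 cleaves after inflammasome assembly. Its signal was tight in the isotype tumours, 94.1, 74.7, 84.8, 78.4 and 93.2, and higher in each anti-rHER2 tumour, 164, 209.5, 159, 203 and 332. Anti-rHER2 tumour 5 was the highest and the groups did not overlap. The resulting log2 fold change was 1.27 ± 0.31 (limma adjusted p = 0.021), and the call ended without isotype tumour 2 or anti-rHER2 tumour 4 or 5 (up to 0.06). Nlrp3, the sensor of one inflammasome, was also called (0.58 ± 0.17, adjusted p = 0.0439), while Casp1 and Pycard of the same complex were not among the called genes.

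Il2 (log2 1.26, limma adjusted p = 0.021) and Ifnl2 (1.01, limma adjusted p = 0.0358) were also called, at signals of a few counts. The call of Il2 ended without isotype tumour 2 or anti-rHER2 tumour 4 or 5 (up to 0.0627). That of Ifnl2 ended with edgeR (edgeR adjusted p = 0.0586) and with a pseudocount of 10 (limma adjusted p = 0.0584). Tnf, Il6, Il10 and Il12b did not pass the test. Tnf was at 2.36 to 12.2 in the isotype and 2.79 to 4.13 in the anti-rHER2 tumours (log2 -0.68 ± 0.35, limma adjusted p = 0.243), and Il6 at 1.0 to 7.77 and 3.3 to 10.9 (0.66 ± 0.36, adjusted p = 0.264). Il10 (0.18 ± 0.33, adjusted p = 0.786) and Il12b (-0.05 ± 0.33, adjusted p = 0.962) had overlapping ranges. The signals of Tnf, Il6 and Il10 rest on a few counts.

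Fos, an immediate early gene of the AP-1 transcription factor, was called (log2 1.32 ± 0.37, limma adjusted p = 0.0342) but its groups overlapped. It had 79.03, 97.7, 152, 126 and 345 in the isotype and 272, 329.6, 311, 522 and 355 in the anti-rHER2 tumours, so that isotype tumour 5 lay inside the anti-rHER2 range. The call ended without isotype tumour 1, 2 or 4 or anti-rHER2 tumour 1, 4 or 5 (adjusted p up to 0.0978). Egr1, another immediate early gene, had 0.75 ± 0.24 and was not called (adjusted p = 0.056).

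Cxcl1, a chemokine that draws neutrophils through CXCR2, was lower. It had 32.0, 32.6, 23.6, 34.6 and 39.8 in the isotype tumours and 17.7, 14.9, 9.91, 23.7 and 21.9 after anti-rHER2. Isotype tumour 3 and anti-rHER2 tumour 4 met at nearly the same value, and otherwise the groups were separate. The difference was -0.89 ± 0.22 on the log2 scale (limma adjusted p = 0.021), called under all 4 other scalings and lost without isotype tumour 2 (adjusted p = 0.0555). The call was also lost in a fit of the compared groups alone, in which 0 genes were lower. Thus the list of neutrophil-recruiting chemokines and receptors had 1 higher gene, Cxcr2, and 1 lower, Cxcl1, of 8 measured, with Cxcl2 at 1.0 to 4.95 over all 10 tumours (log2 0.46 ± 0.36, adjusted p = 0.445).

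Of the 5 measured genes of Fc-gamma receptors and their signalling chain 1 was called, Fcer1g (20.0% beside 8.83% of the panel). The list's median was 0.50, and none of the 4 receptor genes was called. Fcer1g, the common gamma chain, had 271, 209.8, 316, 318 and 279 in the isotype and 421, 358, 359, 397 and 440 in the anti-rHER2 tumours. All anti-rHER2 tumours lay above all isotype tumours, by a 1.43-fold mean difference (log2 0.51 ± 0.14, limma adjusted p = 0.0324), and the call ended without isotype tumour 1 or 2 or anti-rHER2 tumour 1, 4 or 5 (up to 0.0855).

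Of the ligand-binding chains, Fcgr2b, the inhibitory receptor, came closest. It had 652, 573, 619, 544 and 801 in the isotype tumours and 852, 926, 807, 1706 and 822 in the anti-rHER2 tumours. The groups were separate, with anti-rHER2 tumour 4 far above the other tumours of its group (log2 0.63 ± 0.21, limma adjusted p = 0.0616; edgeR adjusted p = 0.032). Fcgr1, the high-affinity receptor, had 0.50 ± 0.19 (limma adjusted p = 0.112) and Fcgr3 had 0.48 ± 0.21 (adjusted p = 0.153), and for both the groups overlapped. Fcgr4, an activating receptor of mouse monocytes, macrophages and neutrophils, was at 109 to 150 with the isotype antibody and 93.3 to 166 with anti-rHER2 (-0.07 ± 0.15, adjusted p = 0.832).

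Downstream of these receptors, 4 of 12 measured kinases and adaptors were higher, among them Syk, Prkcd and Ptprc, and all 12 had positive values, with a median of 0.51. Syk, the kinase that binds the phosphorylated gamma chain, had 70.6, 46.0, 81.3, 62.5 and 71.8 in the isotype and 109.8, 99.3, 85.9, 135 and 145 in the anti-rHER2 tumours. The lowest anti-rHER2 tumour lay just above the highest isotype tumour. The log2 fold change was 0.78 ± 0.20 (limma adjusted p = 0.0222), lost without isotype tumour 2 or anti-rHER2 tumour 4 or 5 (up to 0.064). Prkcd, a protein kinase C that phosphorylates parts of the phagocyte oxidase, was 329.7 to 403 in the isotype and 448 to 611 in the anti-rHER2 tumours (0.52 ± 0.10, adjusted p = 0.00413), called whichever tumour was left out.

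Macrophage markers followed with smaller fold changes. Of 22 measured monocyte and macrophage markers 8 were higher (36.4% beside 8.83% of the panel) and none lower. The median was 0.55, and 21 had positive values, as had 579 of the 770 genes of the panel. Cd68, a lysosomal glycoprotein of macrophages, had 266, 213, 253, 269.9 and 215 in the isotype and 512, 404, 433, 607 and 447 in the anti-rHER2 tumours. The lowest anti-rHER2 tumour was far above the highest isotype tumour. Expressed as log2, the difference was 0.97 ± 0.15 (limma adjusted p = 0.000702), a 1.96-fold difference.

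The other called macrophage markers ranged from 0.55 to 0.83. Csf1r, the receptor of the macrophage growth factor CSF-1, had 483 to 686 in the isotype and 785.4 to 1061 in the anti-rHER2 tumours (0.63 ± 0.14, limma adjusted p = 0.0118), and Cybb, the catalytic subunit of the phagocyte oxidase, had 333 to 511 and 564 to 665 (0.56 ± 0.11, adjusted p = 0.0048). The groups did not overlap for either gene. Emr1, which encodes the F4/80 antigen, reached 0.83 ± 0.22 (adjusted p = 0.0266), and Siglec1, the sialoadhesin of resident macrophages, 0.81 ± 0.20 (adjusted p = 0.021). The calls of Emr1 and Siglec1 ended without isotype tumour 2 or anti-rHER2 tumour 1 or 4, and that of Emr1 also without isotype tumour 1 or 4 (adjusted p up to 0.0776 and 0.0627). Lyz2, lysozyme of myeloid cells, was called with overlapping groups (0.72 ± 0.20, adjusted p = 0.0358), since isotype tumour 3 at 3373 was above anti-rHER2 tumour 4 at 3261. The monocyte gene Ccr2 (0.58 ± 0.30, adjusted p = 0.237) and the co-receptor Cd14 (0.13 ± 0.22, adjusted p = 0.761) were not called. The summed signal of the macrophage markers Cd68, Csf1r and Mrc1 was 905 to 1299 in the isotype tumours and 1572 to 2523 in the anti-rHER2 tumours.

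**Figure D4:**
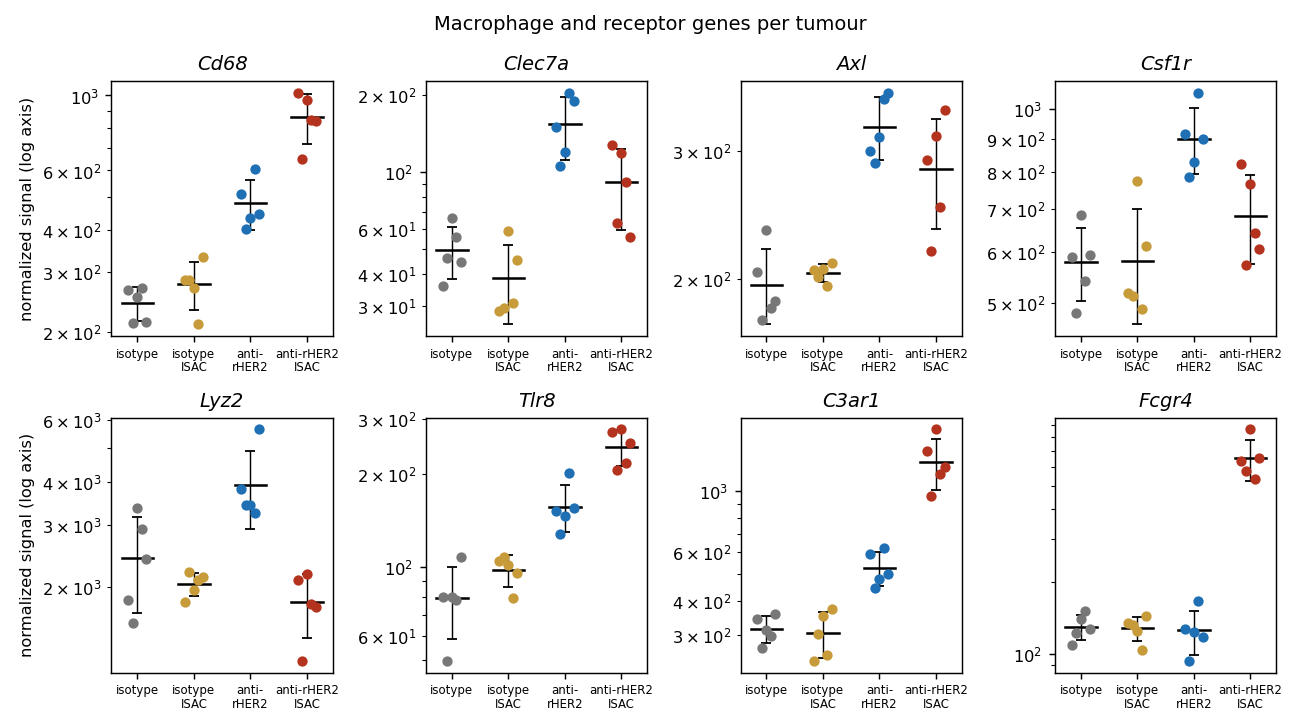
Normalized signal on a log axis for 8 genes in the 4 treatment groups, with 1 point per tumour, a bar at the mean and an error bar of 1 SD (n = 5 per group). Cd68, Clec7a, Axl, Csf1r, Tlr8 and C3ar1 of the anti-rHER2 tumours lie above all isotype tumours, Lyz2 overlaps with 1 isotype tumour, and Fcgr4 overlaps between both and is higher in each anti-rHER2 ISAC tumour.

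Several receptors for the uptake of particles and dying cells were higher. Of 15 measured scavenger and phagocytic receptors 6 were higher (40.0%), among them Clec7a, Cd68, Axl, Thbs1 and Msr1 (median 0.55). Among 7 C-type lectin receptors 3 were higher (42.9%), namely Clec7a, Cd69 and Clec4a2 (median 0.68). In the whole panel 8.83% of the genes were higher. Clec7a encodes dectin-1, a beta-glucan receptor that signals through Syk. Its signal was 35.8, 46.0, 66.0, 55.8 and 44.7 in the isotype tumours and 151, 106, 121, 205 and 191 in the anti-rHER2 tumours. The groups were widely separate, and the log2 fold change was 1.61 ± 0.26 (limma adjusted p = 0.00124).

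Axl, a receptor kinase that recognises dying cells through the bridging protein GAS6, had 204, 175, 233, 182 and 186 in the isotype and 300.5, 289, 314, 354 and 361 in the anti-rHER2 tumours. The spread within each group was small beside the gap between them. The log2 fold change was 0.72 ± 0.12 (limma adjusted p = 0.00124). The related receptor Mertk just missed the threshold (0.57 ± 0.18, adjusted p = 0.0506). Abca1, which exports cholesterol from lipid-loaded macrophages and was in none of the lists, had 422 to 527 and 617 to 883 (0.56 ± 0.12, adjusted p = 0.00978), and Abcg1 of the same pathway 0.59 ± 0.14 (adjusted p = 0.0198).

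Among complement genes and receptors 3 of 31 were higher, close to the share of the panel (C3ar1, Itgam and Itgax; list median 0.36). C3ar1 encodes the receptor of the anaphylatoxin C3a. It had 342, 268, 313, 298 and 357 in the isotype and 589.8, 445, 479, 620.4 and 501 in the anti-rHER2 tumours. The groups were separate, and the log2 fold change was 0.73 ± 0.16 (limma adjusted p = 0.00978). The other 28 were not called, among them the receptor genes C5ar1 (0.40 ± 0.23, adjusted p = 0.295) and Cr2 (0.14 ± 0.31, adjusted p = 0.831) and the component genes C1qa (0.39 ± 0.13, adjusted p = 0.0588) and C3 (0.36 ± 0.49, adjusted p = 0.684).

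Of 27 leukocyte integrins, selectins and ligands 4 were higher (14.8% beside 8.83% of the panel). Under each of the 3 scalings that remove the shift of the median, at most 1 of these 27 was higher and 1 was lower. The list's median was 0.30 as deposited and 0.0955 or less under these scalings. Itgam and Itgax were also counted among the complement receptors, and Itgam among the neutrophil and macrophage markers. Itgb2, the beta chain of the leukocyte integrins, had 67.1 to 111 in the isotype and 115 to 194 in the anti-rHER2 tumours (log2 0.78 ± 0.17, limma adjusted p = 0.0104), and its partners Itgam (0.75 ± 0.18, adjusted p = 0.021) and Itgax (0.70 ± 0.17, adjusted p = 0.0204), the alpha chains of complement receptors 3 and 4, were separate between groups as well. The call of Itgb2 was kept whichever tumour was left out. The third alpha chain, Itgal of LFA-1, had 0.37 ± 0.17 and was not called (adjusted p = 0.186).

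Of the nucleic acid sensors, Tlr8 was called and Tlr7 was not. Tlr8 had 80.0, 49.8, 80.1, 78.4 and 108 in the isotype tumours and 152, 128, 146, 201 and 155 in the anti-rHER2 tumours. Isotype tumour 5 was the highest of its group and still below every anti-rHER2 tumour. The resulting log2 fold change was 1.00 ± 0.17 (limma adjusted p = 0.0014). Tlr7 had 11.5 to 33.9 and 14.9 to 29.7 (0.22 ± 0.27, adjusted p = 0.647). Of 36 measured genes of Toll-like receptor and NF-kB signalling, Irak2, a kinase of the MyD88 complex, was the other higher gene (0.46 ± 0.11, adjusted p = 0.021), and the list's median of 0.18 lay below that of the panel.

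Few interferon response genes were called. Of 36 type I interferon response genes 1 was higher, Ifitm1 (log2 0.99 ± 0.26, limma adjusted p = 0.0289; list median 0.27), which encodes a membrane protein that restricts virus entry, and of 22 interferon-gamma response genes 1 was higher, Cd274 (median 0.22). The call of Ifitm1 ended without isotype tumour 2 or 4 or anti-rHER2 tumour 1, 4 or 5 (up to 0.0804). Ifnb1 was at 1.18 to 3.76 in the isotype and 1.99 to 7.89 in the anti-rHER2 tumours (0.81 ± 0.36, adjusted p = 0.17), and Ifng at 1.33 to 3.88 and 1.0 to 5.92 (0.13 ± 0.33, adjusted p = 0.854).

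Cd274 encodes PD-L1, the ligand of the T cell checkpoint PD-1. It had 52.7, 27.8, 51.9, 35.9 and 39.8 in the isotype and 142, 78.4, 59.4, 137 and 71.0 in the anti-rHER2 tumours. Anti-rHER2 tumours 1 and 4 were the highest and tumour 3 the lowest of the group, just above the isotype range. The difference was 1.16 ± 0.30 on the log2 scale (limma adjusted p = 0.0248), lost without isotype tumour 2 or 4 or anti-rHER2 tumour 1 or 4 (up to 0.0743). No other member of the list of 18 genes of checkpoints and regulatory T cells was called (median 0.34).

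Chemokines of monocytes and lymphocytes were mostly not called. Of 14 monocyte-recruiting chemokines and receptors 1 was higher, and of 30 of lymphocytes 1 was higher, Cxcr4 (log2 0.41 ± 0.12, limma adjusted p = 0.0439). Ccl2 had 67.8 to 126 in the isotype and 92.3 to 181 in the anti-rHER2 tumours (0.24 ± 0.27, adjusted p = 0.602). Ccl3 (-0.15 ± 0.41), Ccl4 (0.43 ± 0.32), Ccl7 (0.37 ± 0.24) and Ccl12 (-0.24 ± 0.29) had adjusted p values from 0.346 to 0.865. Of the ligands of activated T and NK cells, Ccl5 had 0.69 ± 0.28 (adjusted p = 0.136), Cxcl9 0.96 ± 0.38 (0.119) and Cxcl10 0.45 ± 0.31 (0.382), each with overlapping groups.

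Against 8.83% of the panel, the share of higher genes was 16.7% in the MHC class II and in the dendritic cell list. It was 4.55% for co-stimulation and 0% for MHC class I. None of 18 genes of MHC class I presentation was called (median 0.19), and of 12 of class II the higher genes were the lysosomal proteases Ctss (log2 0.46 ± 0.14, limma adjusted p = 0.0463) and Ctsl (0.42 ± 0.13, adjusted p = 0.0484). H2-Ab1, a class II chain, had 1742 to 3166 in the isotype and 1980 to 3302 in the anti-rHER2 tumours (0.05 ± 0.21, adjusted p = 0.931). Of 22 co-stimulatory molecules 1 was higher, Cd48 (0.54 ± 0.16, adjusted p = 0.0439), while Cd86 (0.04 ± 0.21, adjusted p = 0.931) and Cd40 (-0.08 ± 0.24, adjusted p = 0.868) were not called. Of 18 dendritic cell markers 3 were higher (Flt3l, Itgax and Clec4a2), with a median of 0.18. Flt3l, which encodes the growth factor of dendritic cell precursors, had 14.4 to 25.4 and 29.6 to 40.9 (0.71 ± 0.19, adjusted p = 0.0308). Its call ended without isotype tumour 2 or 4 or anti-rHER2 tumour 1, 4 or 5 (up to 0.0838).

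Genes linked to alternative activation were called for 4 of 26 (Arg2, Il10ra, Msr1 and Tgfb2), with a median of 0.30. The share was 15.4% beside 8.83% of the panel. Arg2, the mitochondrial arginase, was at 2.82, 1.92, 4.71, 3.99 and 2.91 in the isotype and at 10.2, 11.9, 7.43, 6.9 and 9.04 in the anti-rHER2 tumours. The groups were separate although all values rest on a few counts, and the log2 fold change was 1.26 ± 0.26 (limma adjusted p = 0.0083). The cytosolic arginase Arg1 had 295 to 432 and 228 to 591 (-0.06 ± 0.23, adjusted p = 0.915), and Nos2, the inducible nitric oxide synthase, 2.82 to 6.8 and 1.0 to 10.9 (-0.19 ± 0.39, adjusted p = 0.823).

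The share of higher genes was 4.35% for T cell markers, 0% for cytotoxic and NK cell genes and 10.5% for B cell markers. The panel's share was 8.83%. Of 23 T cell markers 1 was higher (list median 0.20), and Cd8a stood at 2.66 to 7.07 in the isotype and 5.16 to 10.2 in the anti-rHER2 tumours (log2 0.38 ± 0.36, limma adjusted p = 0.546). The summed signal of Cd3d, Cd3e and Cd3g was 30.6 to 64.8 and 50.4 to 77.2. None of 35 cytotoxic and NK cell genes was called (median 0.19), with Ncr1, the NK receptor NKp46, at 85.4 to 162 and 89.8 to 172 (0.07 ± 0.22, adjusted p = 0.878) and Gzmb, granzyme B, at 0.35 ± 0.20 (adjusted p = 0.29). Of 19 B cell markers 2 were higher, Cd79b and Pou2f2 (median 0.38), and both had overlapping groups. Cd79b, a chain of the B cell receptor, had 3.88 to 10.6 and 9.93 to 14.8 (0.85 ± 0.26, adjusted p = 0.0463). Its call ended without isotype tumour 1, 2, 4 or 5 or anti-rHER2 tumour 1, 3, 4 or 5 (up to 0.124). It also ended with edgeR (edgeR adjusted p = 0.0586). Ms4a1, which encodes CD20, was between 1.0 and 5.16 in all 10 tumours and was not called (0.27 ± 0.34, limma adjusted p = 0.668). Cd69, an early activation antigen of leukocytes, had 32.0, 16.3, 22.4, 22.6 and 30.1 in the isotype and 51.2, 31.8, 42.1, 54.2 and 62.0 in the anti-rHER2 tumours. The groups met at isotype tumour 1 and anti-rHER2 tumour 2, and the log2 fold change was 0.94 ± 0.17 (adjusted p = 0.00297).

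Genes of the tumour cells and the vessels marked the other compartments. None of 15 epithelial and tumour cell genes was called (median 0.02), and the summed signal of Epcam, Cdh1 and Erbb2 was 8164 to 9100 in the isotype and 7851 to 9338 in the anti-rHER2 tumours. Erbb2, the gene that encodes HER2, had 1497, 1296, 1301, 1497 and 1177 in the isotype and 1599, 1660, 1531, 1775 and 1499 in the anti-rHER2 tumours. The groups touched without overlap, and the difference did not pass the test (log2 0.26 ± 0.13, limma adjusted p = 0.217). Whether the probe also reads the rat sequence of the target is not known. Of 21 endothelial genes 2 were higher, Thbd and Thbs1 (median 0.27), a share of 9.52%, close to the 8.83% of the panel. Tie1, an endothelial receptor kinase outside the lists, had 63.6 to 87.4 and 104 to 125 (0.63 ± 0.12, limma adjusted p = 0.0037).

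None of 5 measured proliferation genes was called (median -0.19), among them Birc5, which encodes survivin (log2 -0.39 ± 0.13, limma adjusted p = 0.0611). Of 19 fibroblast and matrix genes 4 were higher (21.1% beside 8.83% of the panel), Mmp9, Fn1, Tgfb2 and Runx1 (median 0.25). Mmp9 was also counted among the neutrophil markers. Under each of the 3 scalings that remove the shift of the median, 0 of these 19 were higher and 1 was lower. None of 21 reference genes was called (median -0.02) and none of 14 mast cell and eosinophil markers (median 0.23). The means of the reference genes were nearly equal as deposited, so their median near 0 is no independent result.

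The members of all lists are set out in the plot of fold changes by list. The lists with the highest medians were those of C-type lectin receptors, neutrophils, scavenger receptors and macrophages, which share genes such as Clec7a, Cd68, Itgam and Cybb. A list's median was 0.50 or more for 6 of the 31 lists, which also hold the Fc-gamma receptors and the kinases. With equal medians of all genes, which put the panel's median at -0.07, the medians of the lectin, neutrophil, scavenger and macrophage lists were 0.42, 0.37, 0.27 and 0.26, with 2, 2, 3 and 1 genes called higher. The Fc-gamma receptor and kinase lists then had medians of 0.21 and 0.22. In these lists 0 genes were called higher with equal medians, and also 0 with quantile normalization. Under the same scaling the dendritic cell, MHC class II and co-stimulation lists had medians of -0.10, -0.09 and -0.10, opposite in sign to those above.

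**Figure D5:**
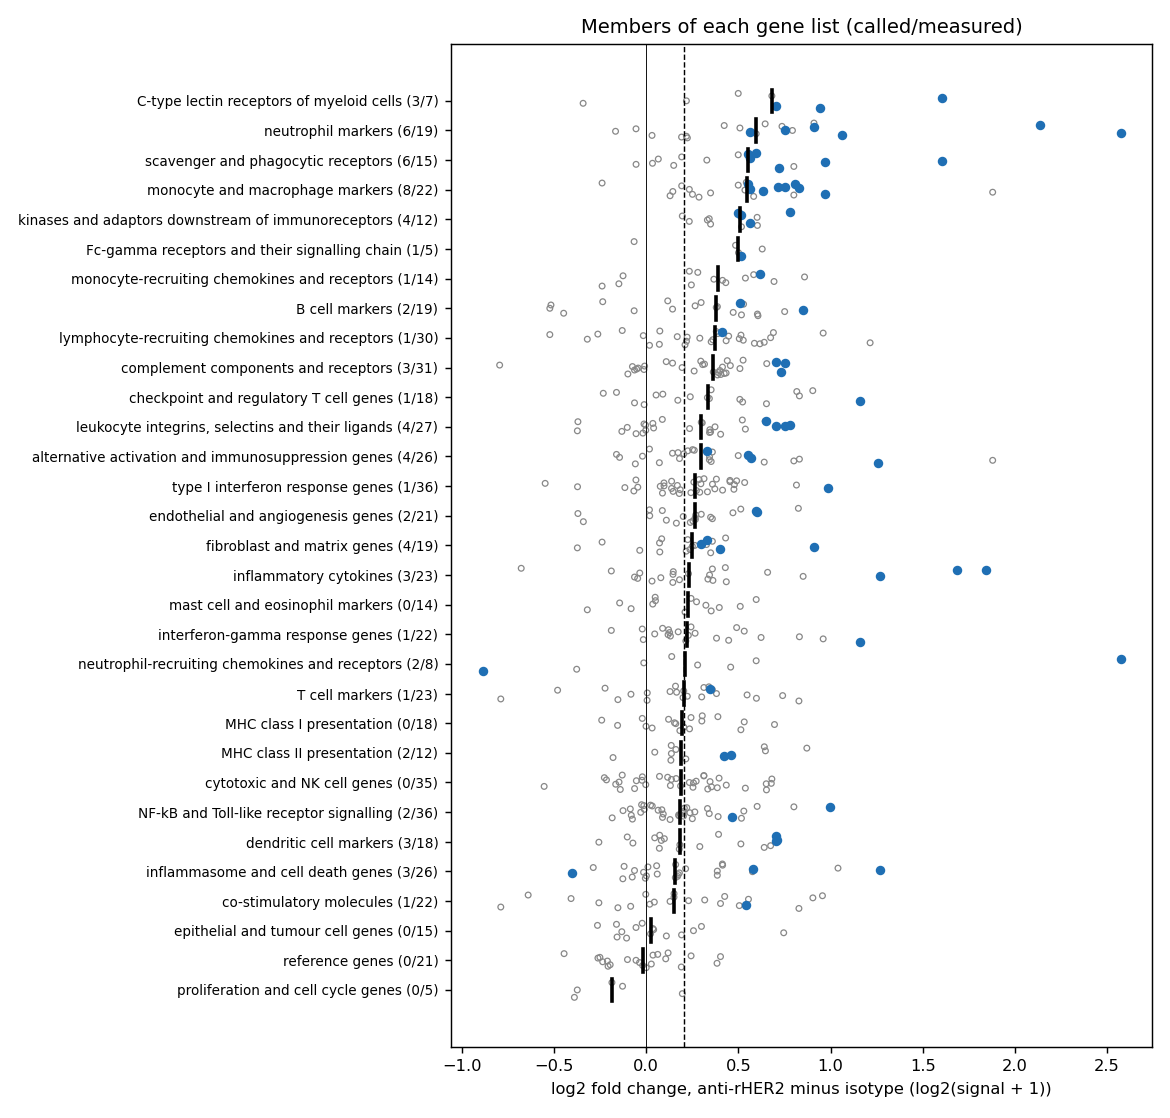
Each point is a measured gene of a list, placed by its log2 fold change, anti-rHER2 minus isotype, on log2(signal + 1). Filled points were called, numbers in parentheses are called over measured genes, black bars are list medians and the dashed line is the median of all 770 genes at 0.20; the myeloid lists at the top lie to the right of it, and the epithelial, reference and proliferation lists at the bottom to the left.

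Against the tumours given the isotype ISAC, the anti-rHER2 tumours had 39 higher genes (5.06%) and 5 lower (0.649%), with a panel median of 0.18. The isotype ISAC carries T785, so this comparison differs in both antibody and payload, and their effects cannot be told apart in it. With equal medians of all genes the counts were 7 and 9, with quantile normalization 15 and 9, and with median-ratio scaling 20 and 10. This comparison shares its 5 anti-rHER2 tumours with the one above. Clec7a had 28.7 to 59.0 in the isotype ISAC tumours and differed by 1.99 ± 0.26 on the log2 scale (limma adjusted p = 0.00035), Cxcr2 had 1.14 to 7.09 and 2.57 ± 0.36 (adjusted p = 0.00047), S100a8 had 23.9 to 49.7 and 1.79 ± 0.30 (adjusted p = 0.002), and Cd68 had 210.5 to 334 and 0.79 ± 0.15 (adjusted p = 0.00402). Ptgs2, with 24.8 to 75.8 in those tumours, had 0.97 ± 0.49 (adjusted p = 0.26), Osm 0.92 ± 0.37 (adjusted p = 0.153) and Cxcl1 -0.60 ± 0.22 (adjusted p = 0.112), none of them called.

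With T785 on the same antibody, 151 genes were higher (19.6%) and 23 lower (2.99%) in the anti-rHER2 ISAC than in the anti-rHER2 tumours, a comparison that again shares the 5 anti-rHER2 tumours and was added after the values were seen. The balance turned with equal medians (61 higher, 188 lower) and quantile normalization (80 and 121), and median-ratio scaling gave 87 and 51. Of the granulocyte genes, S100a8 was higher still at 575 to 1783 (log2 3.10 ± 0.30, limma adjusted p = 3.5e-07) and Cxcr2 at 71.9 to 161 (2.13 ± 0.36, adjusted p = 0.00029). Fcgr4, which did not pass the test after plain antibody, was at 535 to 863 with the conjugate (2.38 ± 0.15, adjusted p = 2.7e-09). For Ptgs2 (-0.03 ± 0.49, adjusted p = 0.98), Osm (0.22 ± 0.37, adjusted p = 0.735) and Il1b (-0.59 ± 0.31, adjusted p = 0.202) no difference between conjugate and plain antibody passed the test as deposited, but Il1b was lower with the conjugate under equal medians (-1.03, adjusted p = 0.0108) and quantile normalization (-0.97, adjusted p = 0.0202).

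Lyz2, Clec7a and Csf1r, called higher after the plain antibody, were lower with the conjugate than with the plain antibody. Lyz2 had 3803, 3439, 3440, 3261 and 5641 with anti-rHER2 and 2089, 1229, 2185, 1786 and 1752 with the anti-rHER2 ISAC. The groups were separate (log2 -1.11 ± 0.20, limma adjusted p = 0.00051), also under all 4 other scalings and with every left-out tumour. Clec7a, at 56.0 to 128 with the conjugate, had -0.78 ± 0.26 (adjusted p = 0.04), and Csf1r, at 574.5 to 824, had -0.40 ± 0.14 (adjusted p = 0.0472). Both were called under the 4 other scalings, but Clec7a in only 4 and Csf1r in only 3 of the 10 fits that left out 1 tumour (adjusted p up to 0.122 and 0.115). These 3 genes were singled out after their values were seen.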

How the data were processed

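Total RNA of the tumours was counted on an nCounter panel, per the labels' protocols. Each deposited value is a normalized signal of 1 of 770 genes. The authors' normalization, the cartridges and any batch are not given in the sources at hand, and no batch could be tested. In each tumour 100% of the values checked were whole multiples of 1 step (0.826 to 1.33, within 0.02 of a count). Those checked lay above the floor and below the highest signals, which were not checked in this way. Dividing all values by the step gave back the probe counts. Of all values 344 stood at the floor of 1. Symbols are printed as deposited, and 762 of 770 matched RefSeq (GRCm38.p6).

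Groups came from the treatment label, 5 tumours each. The labels number the tumours of a group without saying that each came from its own mouse, so p-values measure the spread between these samples. Signals were fitted as log2(signal + 1) with limma 3.58.1 (R 4.3.3) on all 20 tumours, 1 mean for each group, and eBayes without a trend. Tests were 2-sided, adjusted by Benjamini-Hochberg over 770 genes, called at 0.05. Fold changes on this scale understate changes near the floor. No gene was filtered out. The quasi-likelihood test of edgeR 4.0.16 on the recovered counts was an alternative, beside other scalings, a filter, a pseudocount of 10, other fits and leaving out each tumour. The limma and edgeR steps were tested on simulated data. Counting error is largest in genes of a few counts. No 2 tumours were duplicates (the lowest chi-square was 3.85 for each degree of freedom).

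The genes described and the 31 lists were chosen with earlier results of these data known. Genes were named by rule: the 15 highest and 10 lowest called log2 fold changes, up to 3 called genes per list, and 40 set genes. Beyond the rule, Abca1, Abcg1, App, Birc5, C1qa, C3, Ccr2, Cd14, Csf1r, Cybb, Egr1, Elane, Itgal, Lcn2, Lyz2, Mertk, Ms4a1 and Tie1 were named after their values were seen. Some genes that the rule names are not reported here, though they remain in the counts.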

Additional observations from a re-analysis of the deposited data

Results flagged for a closer look

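In 6 of the described genes 1 tumour lay far from the other 4 of its group, by the size of its gap to the nearest tumour. A gap of this size is found by chance in about 1 in 20 groups of 5. Several are therefore expected by chance among as many genes as are described here. In the isotype tumours, Ifitm1 was lowest in tumour 2 at 11.5, Thbd was lowest in tumour 3 at 96.6 and Arg1 was highest in tumour 3 at 432. In the anti-rHER2 tumours, Fcgr2b was highest in tumour 4 at 1706, Tgfb2 was lowest in tumour 3 at 172 and Tlr7 was lowest in tumour 2 at 14.9. The gaps were 0.753, 0.893, 0.715, 0.815, 0.776 and 0.735 of the group's range, in the same order. Whether these tumours differed in cell content or handling was not tested.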

How the results depend on the processing

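Against the isotype antibody the main counts were 68 higher and 2 lower genes. Equal medians gave 12 and 11, median-ratio scaling 22 and 12, quantile normalization 13 and 8, a fit of the compared groups alone 33 and 0, and a minimum log2 fold change of 1 in size 13 and 0. The counts of lower genes were 6 without the genes of lowest mean, 5 with a pseudocount of 10, and 6 each with array weights, a trended robust prior and edgeR. The cause of these shifts was not tested. Leaving out 1 tumour gave 21 to 75 higher and 1 to 4 lower genes.

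Against the isotype ISAC, 39 and 5 became 7 and 9, 20 and 10, and 15 and 9 under the same 3 scalings, with 1 lower gene in the compared groups alone and 10 and 0 at a log2 fold change of 1. Leaving out 1 tumour gave 16 to 45 and 1 to 6; the lowest count of higher genes came without anti-rHER2 tumour 4 or 5. For the anti-rHER2 ISAC against anti-rHER2, 151 and 23 became 61 and 188, 87 and 51, and 80 and 121 under these scalings, 57 and 6 at a log2 fold change of 1, and 14 lower in the compared groups alone. Leaving out 1 tumour gave 105 to 168 and 12 to 17.

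Of the 70 called genes under the 4 other scalings, App alone turned sign, with equal medians (-0.0263). Signs also turned in genes that were not called. With equal medians these were Erbb2 (-0.0313), Ccl2 (-0.0404), Tlr7 (-0.0549), Il10 (-0.0598), Ifng (-0.0828), Ncr1 (-0.21), H2-Ab1 (-0.24) and Cd86 (-0.24). With quantile normalization they were Ccl2 (-0.0128), Tlr7 (-0.0541), Il10 (-0.11), Ifng (-0.0815), Ncr1 (-0.15), H2-Ab1 (-0.016) and Cd86 (-0.25). With median-ratio scaling they were Ifng (-0.0188), Ncr1 (-0.13), H2-Ab1 (-0.16) and Cd86 (-0.16). Array weights gave H2-Ab1 -0.0289 and Cd86 -0.0248, and edgeR gave Arg1 0.0155 and Nos2 0.13. Leaving out 1 tumour gave ranges across 0 for Il10 (-0.0382 to 0.44), Ifng (-0.10 to 0.35), Ncr1 (-0.06 to 0.20), H2-Ab1 (-0.0635 to 0.15), Cd86 (-0.14 to 0.17), Il12b (-0.21 to 0.15), Arg1 (-0.28 to 0.0652), Fcgr4 (-0.17 to 0.0337), Ccl3 (-0.38 to 0.22), Nos2 (-0.51 to 0.13) and Ccl12 (-0.44 to 0.0158).

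Whether the replicate numbers pair the tumours cannot be decided from 5 pairs. Deviations of same-numbered tumours correlated at -0.135 to 0.253, with 2 of 5 pairs over 0.1. Of the anti-rHER2 tumours, 2 of 5 correlated best with the isotype tumour of their own number. With the replicate block, 69 genes were higher and 3 lower. Genes with signals of a few counts, such as Il2, Ifnl2, Ifng and Cxcl2, have the largest counting error.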
